A study of Mus musculus with 6 samples.

Results

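A set of 44 mouse genes known as interferon-stimulated genes were followed in fetal lungs that lack *Tnrc6a* and in wild type (WT) lungs. They were taken as a fixed list of 44 symbols, and each was read from the brightest probe set annotated to that symbol alone. Of the 44, 40 were measured among the 19938 genes with such a probe set. *Isg15*, *Gbp2* and *Igtp* were read only by probe sets shared with another gene, and *Ifi44* had no probe set listed with its symbol, so these 4 have no value here. The list was drawn up with earlier values of these same 6 lungs known, so the differences between genotypes below describe the genes and test nothing about the list.

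The arrays measured total RNA of whole lungs from single embryos at E18.5, shortly before birth, 3 *Tnrc6a* null and 3 WT littermates, all labelled C57Bl/6. *Tnrc6a* encodes GW182, a protein that works with Argonaute in microRNA silencing. The null embryos were homozygous for a gene trap that inserts β-galactosidase into *Tnrc6a*, an allele made on a mixed background, then backcrossed, and carried in every tissue. Values are on the log scale of the deposited table, which the labels call log2 but whose base could not be settled from the files, so differences between means are given in units of that scale and never as folds.

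Interferons are secreted proteins that cells make on sensing foreign or misplaced nucleic acid. Type I interferons bind a receptor of the chains Ifnar1 and Ifnar2, the kinases Jak1 and Tyk2 pass the signal to Stat2, and Stat2 joins Irf9 in a complex that binds interferon-stimulated response elements in promoters. The genes so induced encode sensors, signalling proteins and antiviral effectors, many of which feed back on the pathway, and their transcripts tend to move together within a tissue. Interferon gamma acts at a different element and induces an overlapping set that includes guanylate-binding proteins and immunoproteasome subunits.

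The sequences below show the promoter letters that many of these genes share. RefSeq promoters (GRCm38.p6, 250 bases before to 50 bases after the gene start) were found for 31 of the 40 measured genes. The core of the response element, GAAA followed by any 2 bases and GAAA again, was searched on both strands. It was present in 14 of these 31 genes (45.2%), against 3.99% of all 27025 genes with a promoter and 3.44% of all 32851 promoters. Of the 14, 11 are printed first as windows on the strand of the match, each with the 10 matching bases in capitals.
*Ifih1*, chr2:62646206-62646233, - strand: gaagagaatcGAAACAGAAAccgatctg
*Ddx58*, chr4:40239804-40239833, + strand: ctggccatagGAAATCGAAActgcctcagg
*Stat2*, chr10:128270266-128270295, - strand: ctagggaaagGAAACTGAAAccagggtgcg
*Ifit1*, chr19:34640775-34640804, - strand: actgagactgGAAAGTGAAActgaagcctg
*Rsad2*, chr12:26456553-26456582, + strand: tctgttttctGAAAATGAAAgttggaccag
*Oas3*, chr5:120777715-120777744, - strand: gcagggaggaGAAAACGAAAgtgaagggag
*Bst2*, chr8:71537583-71537612, - strand: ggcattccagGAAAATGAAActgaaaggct
*Irgm1*, chr11:48871431-48871460, - strand: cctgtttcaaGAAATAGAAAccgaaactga
*Gbp3*, chr3:142559989-142560018, - strand: ctgggaaataGAAACTGAAActgtgtcctg
*Trim30a*, chr7:104465210-104465239, + strand: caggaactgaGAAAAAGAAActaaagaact
*Trim30d*, chr7:104507871-104507900, + strand: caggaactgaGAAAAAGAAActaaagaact
*Gbp3*, *Irgm1* and *Bst2* held another match that shares its middle GAAA with the first. *Ifit1* held a separate match 85 bases before the start, and a second promoter of *Trim30a* held a match from base 3 after its start. The printed windows of *Trim30a* and *Trim30d*, neighbouring members of the TRIM30 family, were letter for letter the same. The remaining 3 of the 14 are printed as whole promoters, since *Ifit3*, *Eif2ak2* and *Trim12c* differ in how their signal varied between lungs (below). The capitals again mark the match, which reads TTTC on the printed strand where the match lies on the opposite strand.
*Ifit3*, chr19:34583279-34583578, + strand: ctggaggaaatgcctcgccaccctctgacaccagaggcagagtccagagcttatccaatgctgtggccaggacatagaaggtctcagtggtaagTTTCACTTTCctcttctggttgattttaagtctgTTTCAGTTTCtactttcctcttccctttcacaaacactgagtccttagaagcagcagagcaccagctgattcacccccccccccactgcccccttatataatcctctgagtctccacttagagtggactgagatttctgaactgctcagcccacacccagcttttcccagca
*Eif2ak2*, chr17:78882523-78882822, - strand: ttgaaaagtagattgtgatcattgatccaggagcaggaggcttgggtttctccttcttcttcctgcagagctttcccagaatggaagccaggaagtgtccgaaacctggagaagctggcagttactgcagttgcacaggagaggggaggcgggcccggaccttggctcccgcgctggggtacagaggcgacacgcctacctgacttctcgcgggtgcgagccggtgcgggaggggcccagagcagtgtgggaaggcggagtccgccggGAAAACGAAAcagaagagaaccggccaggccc
*Trim12c*, chr7:104353300-104353599, - strand: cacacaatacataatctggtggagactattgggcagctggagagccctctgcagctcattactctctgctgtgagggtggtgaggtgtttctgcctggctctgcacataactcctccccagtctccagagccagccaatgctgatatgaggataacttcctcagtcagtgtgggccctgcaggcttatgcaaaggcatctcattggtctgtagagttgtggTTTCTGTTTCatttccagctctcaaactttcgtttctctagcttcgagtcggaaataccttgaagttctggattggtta
The promoter of *Psmb9*, 1 of the 17 genes with no match in this window, is printed for comparison with these.
*Psmb9*, chr17:34187281-34187580, - strand: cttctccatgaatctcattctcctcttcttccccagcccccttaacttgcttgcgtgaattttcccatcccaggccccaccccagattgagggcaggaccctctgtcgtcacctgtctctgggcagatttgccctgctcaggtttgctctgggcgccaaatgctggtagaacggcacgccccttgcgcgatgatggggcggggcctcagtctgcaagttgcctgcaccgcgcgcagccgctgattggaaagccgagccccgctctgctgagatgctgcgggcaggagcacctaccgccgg
The element of the interferon gamma pathway, TTCNNNGAA, which reads the same on both strands, was present in 6 of the 31 genes (19.4%), against 9.55% of all genes with a promoter. A match is a run of letters and not a shown binding site.

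**Figure D1:**
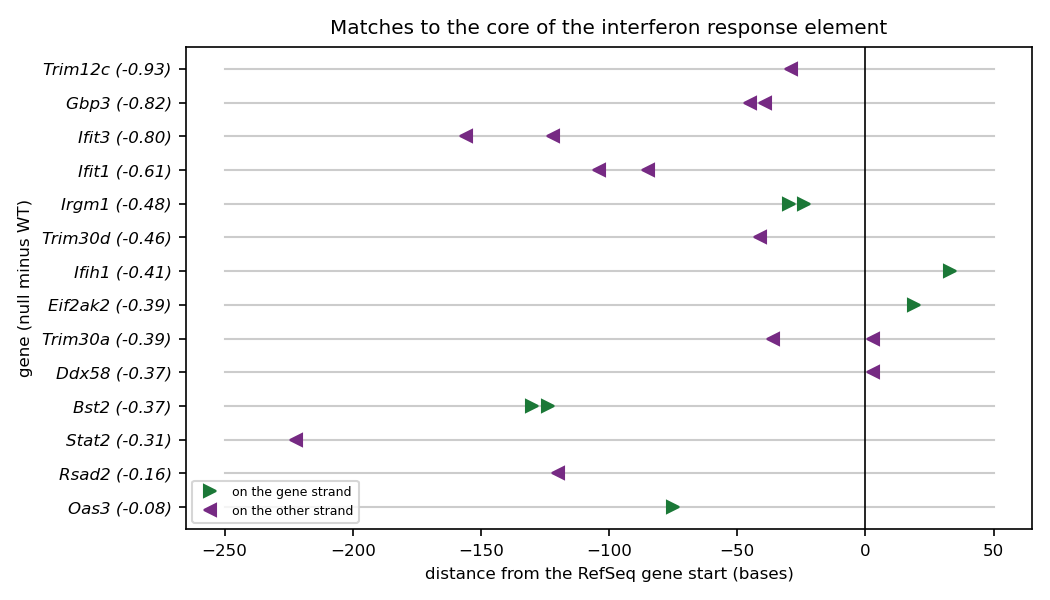
Position of each match to the response element core (GAAA, any 2 bases, GAAA) between 250 bases before and 50 bases after the RefSeq start, in bases from that start, for the 14 measured genes that hold one. Each row is a gene with its *Tnrc6a* null minus WT difference on the deposited log scale in parentheses, and arrowheads give the strand. Matches lay between 222 bases before and 33 bases after the start, and 13 of the 20 were on the strand opposite the gene.

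The 14 genes with a match were all lower on average in *Tnrc6a* null lungs, with a median difference of -0.40, and 12 of the 17 without a match were lower, with a median of -0.27. The medians of the range over the 6 lungs were 1.45 with a match and 0.90 without. These are descriptions of small groups of genes whose promoters were read in one window only, and genes of a family share sequence.

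The arrays matched their labels in the targeted gene and the tissue. *Tnrc6a* read 5.45, 5.04 and 5.40 in *Tnrc6a* null replicates 1 to 3, against 7.38, 7.13 and 7.18 in WT replicates 1 to 3, a difference of -1.93 ± 0.13 (limma standard error, adjusted p = 0.00312), and it was the 1 gene of 19938 past an adjusted p of 0.05. The alveolar type 2 marker *Sftpc* lay between 11.64 and 11.82 in all 6 lungs and the endothelial marker *Cdh5* between 9.92 and 10.25. Array medians ran between 4.98 and 5.03. A pair of lungs of opposite genotype, *Tnrc6a* null replicate 3 and WT replicate 1, resembled each other across all genes (r = 0.9921, against 0.9787 to 0.9928 over the 15 pairs), and no label names a batch that they share. They were not alone in this, since null replicate 2 and WT replicate 2 gave r = 0.9918. The counts below are given with and without null replicate 3 and WT replicate 1, which were singled out from the data.

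In *Tnrc6a* null lungs 35 of the 40 interferon-stimulated genes were lower on average than in WT lungs, with a median difference of -0.36, against 49.8% of all genes lower and a median of 0.00. No gene of the 40 passed an adjusted p of 0.05 in limma (0.00502% of all genes did). At an unadjusted p of 0.05, 4 were lower (*Trim12c*, *Eif2ak2*, *Bst2* and *Rnf213*), against a background of 2.96% of all genes, and 0 were higher, against 2.46%. Only *Trim12c* and *Eif2ak2* were lower in all 3 null lungs than in all 3 WT lungs, 2 of 40 against a background of 5.51%, and 0 were higher in all null lungs, against 4.67%. By the methods' t-test 2 of the 40 were lower at an unadjusted p of 0.05, and the share of all genes so called was not counted.

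Most of the 40 genes shared their order across lungs, which was not a split by genotype. The mean over the 40 was 5.78, 6.12 and 5.40 in *Tnrc6a* null replicates 1 to 3, against 5.55, 6.34 and 6.49 in WT replicates 1 to 3 (5.77 ± 0.36 and 6.13 ± 0.50, SD, n = 3 each). WT replicate 1 thus lay below 2 of the 3 null lungs, and null replicate 2 lay closest to WT replicates 2 and 3. Null replicate 3 was the lowest null lung for 37 of the 40 genes, against 43.9% of all genes, and WT replicate 1 was the lowest WT lung for 39 of 40, against 56.7%. These 2 were the lowest 2 of all 6 lungs for 34 genes, against 23.2% of all genes. The highest of the 6 was WT replicate 3 for 30 genes and WT replicate 2 for 6.

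**Figure D2:**
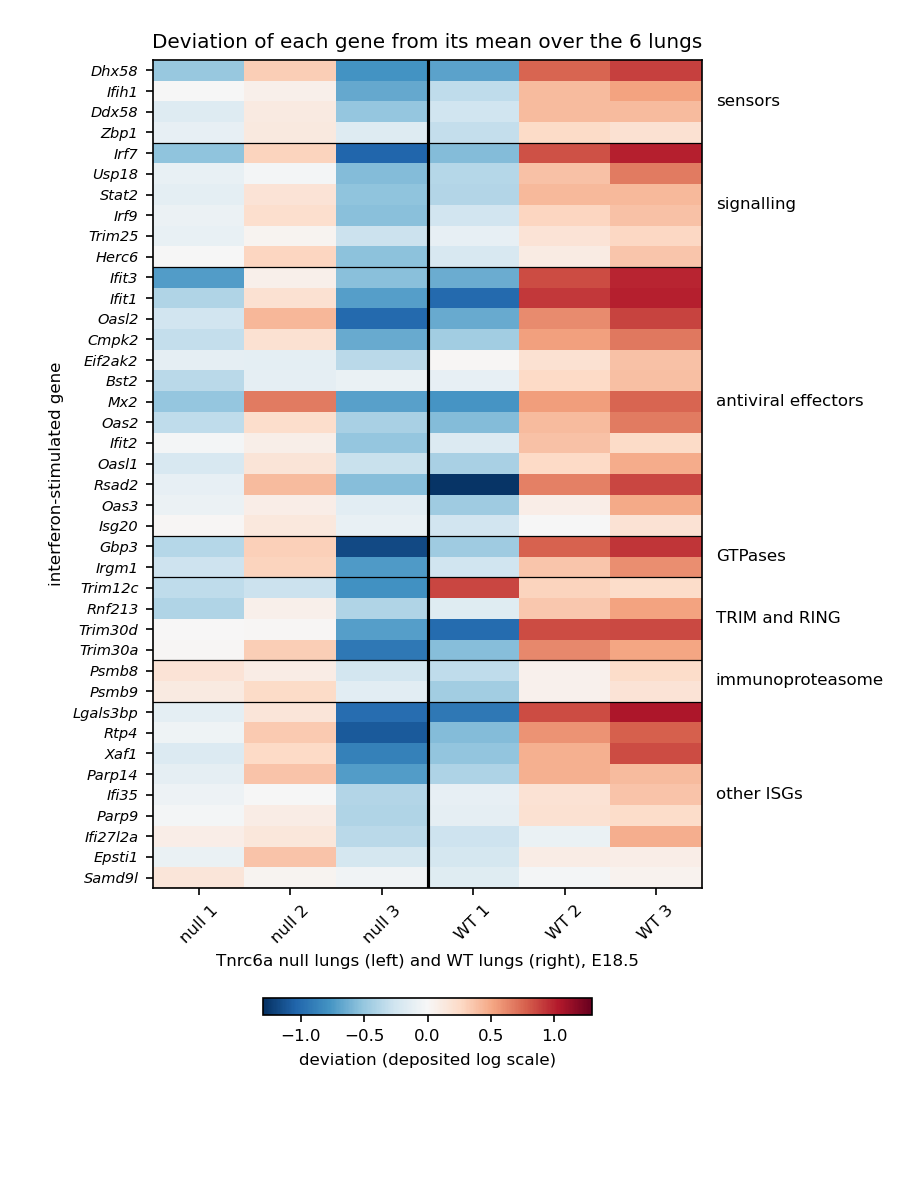
Heat map of the 40 measured interferon-stimulated genes (rows, grouped by role) in 3 *Tnrc6a* null lungs (left) and 3 WT lungs (right). Colour is the deviation of each lung from the gene's mean over the 6 lungs on the deposited log scale, red above and blue below, and the columns of null replicate 3 and WT replicate 1 are blue for nearly all genes while *Trim12c* is red in WT replicate 1.

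The spread was wide as well as shared. The median range over the 6 lungs was 1.08 for the 40 genes and 0.42 for all genes, and the median SD within a genotype was 0.39 for the 40 and 0.15 for all genes. Genotype took a median of 17.3% of each gene's sum of squares over the lungs, against 13.6% for all genes. Within the pair of low lungs, null replicate 3 set against WT replicate 1 was lower for 25 of the 40 genes and higher for 14, with a median difference of -0.18, where the median of all genes was 0.05.

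Without these 2 lungs the genotypes stood further apart. Of the 40 genes, 37 were then lower in null replicates 1 and 2 than in WT replicates 2 and 3 on average, against 55.3% of all genes, with a median difference of -0.44. Both null lungs lay below both WT lungs for 31 genes, against a background of 25.3%, and above them for 0, against 18.2%. At an unadjusted p of 0.05, 28 were lower (8.74% of all genes) and 0 higher (5.78%), and *Lgals3bp* was the 1 gene past the adjusted threshold (0.115% of all genes). A block for the same 2 lungs, which keeps all 6, put 27 lower at an unadjusted p of 0.05 (8.42% of all genes) and 0 past the adjusted threshold. The 2 lungs did not weigh alike. Leaving out WT replicate 1 alone gave a median of -0.63 and 27 genes lower at an unadjusted p of 0.05 (6.44% of all genes), whereas leaving out null replicate 3 alone gave -0.16 and 3 genes (2.73%). Because the lungs were chosen after their values were seen, these counts are optimistic. The same holds for the standard errors without the 2 lungs that are given for single genes below.

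**Figure D3:**
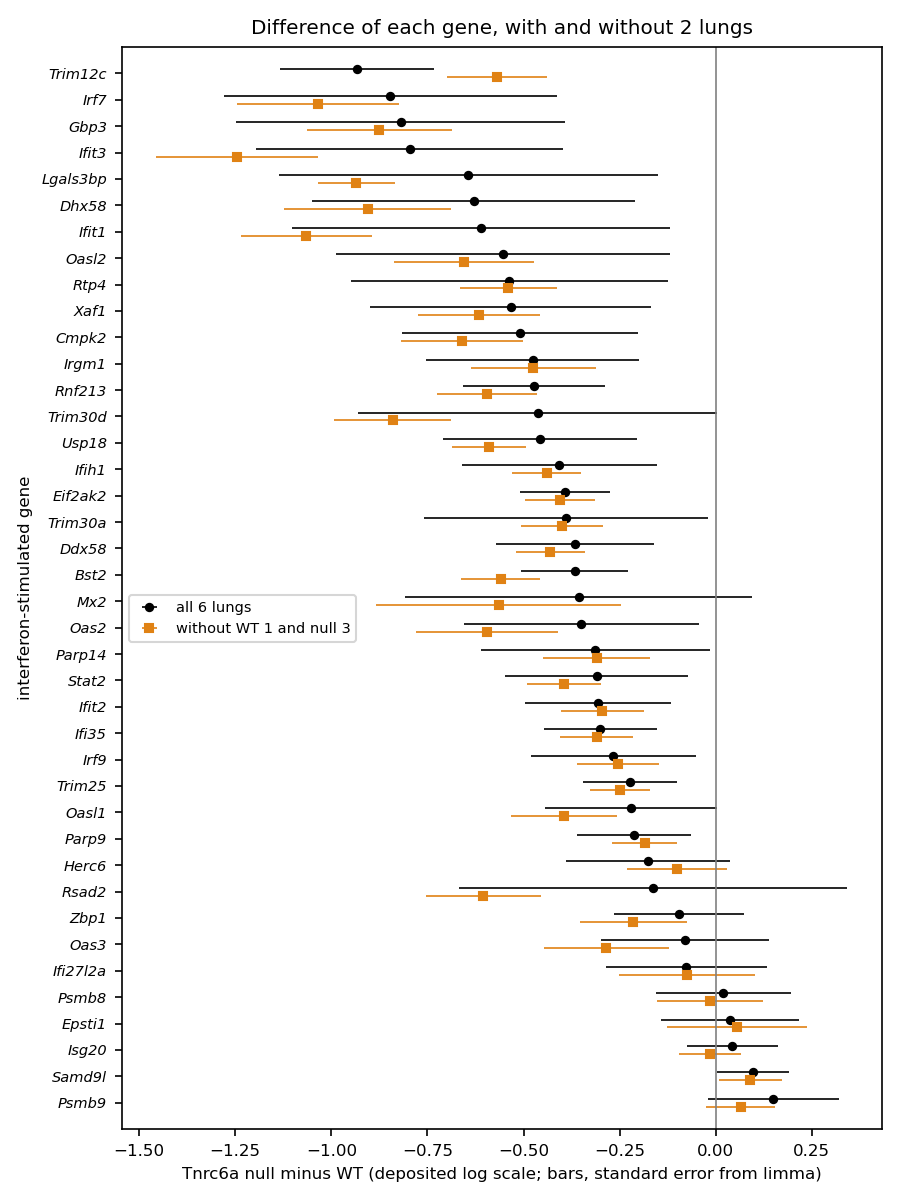
Difference between *Tnrc6a* null and WT lungs for each of the 40 genes (rows), on the deposited log scale, with limma standard errors. Black circles use all 6 lungs and orange squares leave out WT replicate 1 and null replicate 3. Of the 40 squares 37 lie below 0, and the square of *Trim12c* lies nearer to 0 than its circle.

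The sensors of foreign nucleic acid were lower on average in 4 of 4 genes, and none reached an unadjusted p of 0.05. *Ddx58*, which encodes the RNA sensor RIG-I, read 7.38, 7.66 and 7.04 in *Tnrc6a* null replicates 1 to 3, against 7.28, 7.95 and 7.95 in WT replicates 1 to 3, a difference of -0.37 ± 0.21. Null replicate 3 was lowest, and the other null lungs lay above WT replicate 1. *Ifih1*, which encodes the sensor of long double-stranded RNA MDA5, read 5.96, 6.03 and 5.30 in the null lungs and 5.64, 6.38 and 6.49 in the WT lungs, a difference of -0.41 ± 0.25. *Dhx58*, whose product LGP2 is a relative that tunes both, read 4.86, 5.67 and 4.57 in the null lungs and 4.65, 6.10 and 6.24 in the WT lungs, with the widest spread of the 4 and a difference of -0.63 ± 0.42. In each of these 3 genes WT replicates 2 and 3 exceeded every null lung. *Zbp1*, a sensor of nucleic acid in the Z form, differed by -0.10. Without the 2 low lungs the differences of *Ddx58*, *Ifih1* and *Dhx58* were -0.43 ± 0.09, -0.44 ± 0.09 and -0.91 ± 0.22.

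The transducers and feedback genes of the pathway were lower on average in 6 of 6, between -0.85 for *Irf7* and -0.18 for *Herc6*. *Irf7*, the transcription factor that amplifies interferon alpha production, read 5.58, 6.39 and 5.07 in *Tnrc6a* null replicates 1 to 3, against 5.54, 6.93 and 7.11 in WT replicates 1 to 3, a difference of -0.85 ± 0.43. It was lowest in null replicate 3, about equal in null replicate 1 and WT replicate 1, and null replicate 2 lay between them and the other WT lungs. Without the 2 low lungs its difference was -1.03 ± 0.21. *Usp18*, which strips ISG15 from proteins and dampens the receptor, read 6.89, 6.96 and 6.42 in the null lungs and 6.61, 7.37 and 7.66 in the WT lungs, a difference of -0.46 ± 0.25. *Trim25*, a ubiquitin ligase that activates RIG-I, read 6.84, 6.97 and 6.65 in the null lungs and 6.82, 7.11 and 7.20 in the WT lungs, a difference of -0.22 ± 0.12. For both, WT replicate 1 lay within the range of the null lungs, and without the 2 low lungs the differences were -0.59 ± 0.10 and -0.25 ± 0.08. *Stat2* and *Irf9*, which carry the interferon signal to the nucleus, differed by -0.31 and -0.27. *Herc6*, the mouse ligase that attaches ISG15, was the 1 gene of the 6 in which null replicate 2 exceeded WT replicate 2.

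Among the antiviral effectors 12 of 13 were lower on average, and 2 reached an unadjusted p of 0.05. *Eif2ak2* encodes PKR, the kinase that halts translation on binding double-stranded RNA. It read 6.17, 6.16 and 5.93 in *Tnrc6a* null replicates 1 to 3, against 6.30, 6.48 and 6.66 in WT replicates 1 to 3, a difference of -0.39 ± 0.12. All null lungs lay below all WT lungs, and the range over the 6 lungs, 0.73, was narrow for this list. *Bst2*, which encodes the virus-tethering protein tetherin, read 5.93, 6.16 and 6.19 in the null lungs and 6.17, 6.54 and 6.67 in the WT lungs, a difference of -0.37 ± 0.14. The highest null lung lay just above the lowest WT lung, and the difference without the 2 low lungs was -0.56 ± 0.10. *Ifit3*, whose product joins a complex on viral RNA ends, read 4.85, 5.64 and 5.03 in the null lungs and 4.93, 6.42 and 6.56 in the WT lungs, a difference of -0.80 ± 0.40, and here WT replicate 1 sat among the null lungs. Without the 2 low lungs the difference of *Ifit3* was -1.25 ± 0.21 and that of *Eif2ak2* -0.41 ± 0.09.

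WT replicate 1 was the lowest WT lung in all 13 effectors. *Ifit1*, from the same family, differed by -0.61 ± 0.49 and *Ifit2* by -0.31 ± 0.19. The oligoadenylate synthetases *Oas2* and *Oas3*, which make the activator of RNase L, differed by -0.35 and -0.08, and the related *Oasl1* and *Oasl2* by -0.22 and -0.55. *Rsad2*, which encodes viperin, had its lowest value of all 6 lungs in WT replicate 1 (5.20, against 5.92 to 6.89 in the null lungs and 7.13 and 7.34 in the other WT lungs), and its difference was -0.16 ± 0.51 with all lungs and -0.60 ± 0.15 without the 2. Its partner in induction *Cmpk2*, a mitochondrial nucleotide kinase, differed by -0.51 ± 0.31, and *Mx2*, a dynamin-like GTPase, by -0.36 ± 0.45. *Isg20*, an exonuclease, read 7.51, 7.63 and 7.40 in the null lungs and 7.24, 7.49 and 7.68 in the WT lungs, a difference of 0.04 ± 0.12, and it was the effector with a higher null average.

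**Figure D4:**
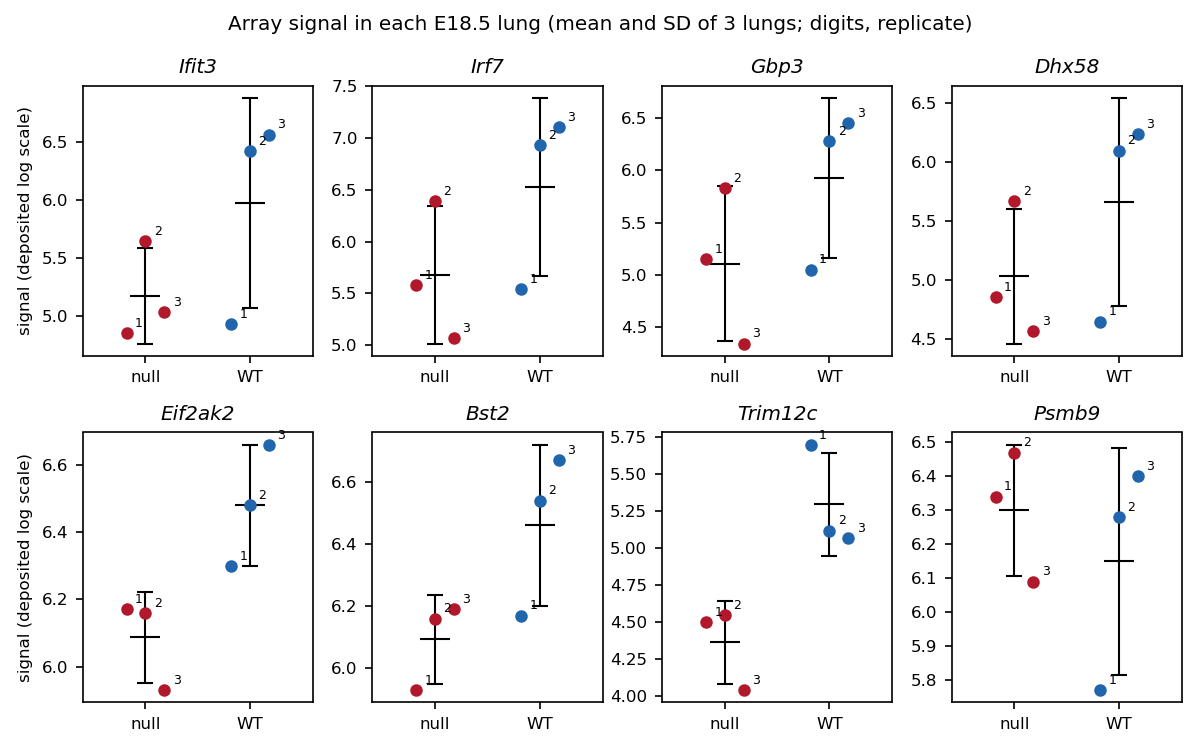
Signal of 8 of the genes in each lung on the deposited log scale, *Tnrc6a* null left and WT right, with the mean and SD of 3 lungs and the replicate number beside each point. The vertical axes differ between genes. WT replicate 1 lies among or below the null lungs for *Ifit3*, *Irf7*, *Gbp3*, *Dhx58* and *Psmb9*, and the genotypes separate only for *Eif2ak2* and *Trim12c*.

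Of the interferon-inducible GTPases, which act on intracellular pathogens, 2 of the 4 listed were measured. *Gbp3*, a guanylate-binding protein gene, read 5.15, 5.83 and 4.34 in *Tnrc6a* null replicates 1 to 3, against 5.05, 6.28 and 6.45 in WT replicates 1 to 3, a difference of -0.82 ± 0.43. *Irgm1*, which regulates the immunity-related GTPases, read 5.90, 6.45 and 5.43 in the null lungs and 5.91, 6.53 and 6.77 in the WT lungs, a difference of -0.48 ± 0.28. For both genes null replicate 3 was the lowest lung and null replicate 1 lay near WT replicate 1. Without the 2 low lungs the differences were -0.88 ± 0.19 and -0.47 ± 0.16.

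The TRIM and RING finger genes were lower on average in 4 of 4, and *Trim12c* departed from the shared lung order. *Trim12c*, a TRIM5-related gene, read 4.50, 4.55 and 4.04 in *Tnrc6a* null replicates 1 to 3, against 5.70, 5.12 and 5.07 in WT replicates 1 to 3, a difference of -0.93 ± 0.20. All null lungs lay below all WT lungs, and WT replicate 1 was the highest lung and not the lowest. Genotype took 76.4% of its sum of squares, and without the 2 lungs its difference was -0.57 ± 0.13. *Trim30a*, a negative regulator of NF-κB signalling, read 6.28, 6.59 and 5.34 in the null lungs and 5.71, 6.89 and 6.78 in the WT lungs, a difference of -0.39 ± 0.37. *Trim30d* read 3.70, 3.71 and 2.98 in the null lungs and 2.69, 4.54 and 4.55 in the WT lungs, a difference of -0.46 ± 0.47, with WT replicate 1 at the bottom. Without the 2 low lungs *Trim30a* differed by -0.40 ± 0.11 and *Trim30d* by -0.84 ± 0.15. *Rnf213*, a large ubiquitin ligase, read 7.61, 8.07 and 7.61 in the null lungs and 7.84, 8.35 and 8.52 in the WT lungs, a difference of -0.47 ± 0.19, and its other probe set gave -0.46 ± 0.16. Its difference without the 2 low lungs was -0.59 ± 0.13. The TRIM12 and TRIM30 genes are close copies in the mouse genome, and whether a probe set reads more than one of them was not tested.

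Of the 40 genes, 4, namely *Trim12c*, *Trim30a*, *Trim30d* and *Irf7*, lie within 20 Mb of *Tnrc6a* on chromosome 7, and *Isg20* lies further along it. Of the 625 genes measured within 20 Mb of *Tnrc6a*, 24 were lower and 32 higher at an unadjusted p of 0.05 (3.84% and 5.12%). *Trim12a*, named after its values were seen, is a neighbour of *Trim12c* and read 2.22, 2.38 and 2.32 in the null lungs and 2.28, 4.41 and 4.96 in the WT lungs. WT replicate 1 was at the level of the null lungs for *Trim12a* and was the highest lung for *Trim12c*. Without the 5 genes of chromosome 7, 31 of 35 were lower on average, with a median of -0.35, 3 were lower at an unadjusted p of 0.05, and *Eif2ak2* was the 1 gene whose null and WT lungs did not overlap. The part of strain alleles linked to the gene trap was not tested.

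Of the immunoproteasome subunits, which shape peptides for antigen presentation and respond mainly to interferon gamma, *Psmb9* and *Psmb8* were not lower on average. *Psmb10*, a subunit outside the fixed list that was named after its values were seen, was lower on average. *Psmb9* read 6.34, 6.47 and 6.09 in the null lungs and 5.77, 6.28 and 6.40 in the WT lungs, a difference of 0.15 ± 0.17. *Psmb8* read 4.80, 4.72 and 4.39 in the null lungs and 4.30, 4.68 and 4.87 in the WT lungs, a difference of 0.02 ± 0.17, whose sign turned with the scaling of the arrays. WT replicate 1 was the lowest of the 6 lungs for both, and the differences without it and null replicate 3 were 0.07 ± 0.09 and -0.01 ± 0.14.

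Of the remaining 9 genes 7 were lower on average. *Lgals3bp*, a secreted glycoprotein that binds galectins, read 7.94, 8.23 and 7.08 in *Tnrc6a* null replicates 1 to 3, against 7.14, 8.92 and 9.12 in WT replicates 1 to 3, a difference of -0.64 ± 0.49 with all lungs and -0.94 ± 0.10 without the 2 low lungs. In the other 4 lungs both null values lay below both WT values. *Xaf1*, a promoter of apoptosis, read 5.72, 6.15 and 5.01 in the null lungs and 5.38, 6.36 and 6.74 in the WT lungs, a difference of -0.53 ± 0.36. *Ifi35*, whose product associates with the interferon-induced protein Nmi, read 6.00, 6.06 and 5.68 in the null lungs and 5.96, 6.25 and 6.43 in the WT lungs, a difference of -0.30 ± 0.15. In both, only WT replicate 1 overlapped the null lungs, and the differences without the 2 low lungs were -0.61 ± 0.16 and -0.31 ± 0.10. *Parp9*, a PARP family gene, read 6.27, 6.40 and 5.91 in the null lungs and 6.18, 6.50 and 6.54 in the WT lungs. Its difference was -0.21 ± 0.15 (-0.18 ± 0.08 without the 2 low lungs). Its partner *Parp14* differed by -0.31, *Rtp4* by -0.54 and *Ifi27l2a* by -0.08. *Samd9l*, an antiviral and growth-restraining gene, read 6.81, 6.68 and 6.60 in the null lungs and 6.49, 6.62 and 6.69 in the WT lungs, a difference of 0.10 ± 0.09 with a range over the 6 lungs of 0.32. *Epsti1* read 4.10, 4.56 and 3.96 in the null lungs and 3.96, 4.28 and 4.27 in the WT lungs, a difference of 0.04 ± 0.18, a value within its error that changed sign under quantile normalization.

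Most interferon genes were not lower on average in *Tnrc6a* null lungs. Of 21 listed ligand genes 16 were measured, 5 lower and 11 higher on average, with a median of 0.09 (0.04 without the 2 low lungs). *Ifnb1*, the early type I interferon, read 3.83, 3.82 and 3.77 in the null lungs and 3.62, 4.0 and 3.79 in the WT lungs, a difference of 0.00 ± 0.14. *Ifna16*, *Ifna14* and *Ifnab* were higher at an unadjusted p of 0.05 (differences of 0.56, 0.39 and 0.46), and none passed the adjusted threshold (adjusted p = 0.89 for each). They were 18.8% of the 16, against 2.46% of all genes. Interferon alpha genes are near-identical copies that probes may not tell apart. The mean signal of the 16 ligands lay between percentiles 2.04 and 66.9 of all genes, with *Ifnb1* at 19.3. For the dim ones these values can show neither a fall nor its absence. For the 16 ligands WT replicate 1 was again the lowest lung, with a mean of 3.87, but null replicate 3, with 4.04, exceeded WT replicate 3, with 3.98.

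The receptors and kinases that read interferon were lower on average in all 9 genes measured, with a median of -0.12 (-0.16 without the 2 low lungs). *Ifnar1* read 7.53, 7.56 and 7.43 in the null lungs and 7.53, 7.60 and 7.64 in the WT lungs, a difference of -0.08 ± 0.08. *Ifnar2* read 8.14, 8.17 and 8.09 in the null lungs and 8.35, 8.10 and 8.04 in the WT lungs, a difference of -0.03 ± 0.09, with the highest value in WT replicate 1. The 2 lower at an unadjusted p of 0.05 were *Il10rb*, a shared chain of the interferon lambda receptor (-0.20), and *Jak1* (-0.19), and in both all null lungs lay below all WT lungs. They were 22.2% of the 9. Of all genes, 2.96% were lower at that p and 5.51% had all null lungs below all WT lungs. The list's mean lay between 7.42 and 7.60 in null lungs and between 7.57 and 7.69 in WT lungs.

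Genes that start or restrain the response had smaller median differences than the 40 stimulated genes, which was not tested. Of 22 measured genes of the induction pathway, 19 were lower on average, with a median of -0.11 (-0.12 without the 2 low lungs). *Tlr8* (-0.54), *Tlr4* (-0.45) and *Irf5* (-0.30) were lower and *Nlrc5*, a regulator of MHC class I genes, was higher (0.18) at an unadjusted p of 0.05. These were 13.6% lower and 4.55% higher, against 2.96% and 2.46% of all genes. *Irf3*, *Mavs* and *Tbk1*, the core of RNA-triggered induction, differed by 0.02, -0.01 and -0.12. Of 15 inhibitors 10 were lower on average, with a median of -0.05 (-0.07 without the 2 low lungs). At an unadjusted p of 0.05 *Ptpn1* (-0.30) and *Samhd1* (-0.23) were lower (13.3%, against 2.96% of all genes). None of the receptor, induction or inhibitor genes passed the adjusted threshold.

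A further list of 87 interferon-stimulated genes outside the 44 held genes of both directions. Of its 71 measured genes, 48 were lower on average and 23 higher, with a median of -0.13. At an unadjusted p of 0.05, 8 were lower and 3 higher (11.3% and 4.23%, against 2.96% and 2.46% of all genes), and none passed the adjusted threshold. *Zc3hav1*, an antiviral RNA-binding protein, read 5.69, 5.83 and 5.49 in the null lungs and 5.87, 6.17 and 6.14 in the WT lungs, a difference of -0.39 ± 0.12. *Iigp1*, an immunity-related GTPase, and *Tor3a* differed by -0.52 and -0.40. *Ifi44l* read 4.03, 4.23 and 3.97 in the null lungs and 3.52, 3.58 and 3.53 in the WT lungs, a difference of 0.53 ± 0.13, with all null lungs above all WT lungs. WT replicate 1 was the lowest WT lung for 62 of the 71 genes and null replicate 3 the lowest null lung for 48. Without these 2 lungs 27 were lower and 4 higher at an unadjusted p of 0.05 (38.0% and 5.63%, against 8.74% and 5.78% of all genes), and 2, *Trim12a* and *Parp12*, were past the adjusted threshold, against 0.115% of all genes. With a block for the same 2 lungs 1 was past it, *Parp12*, against 0.281%.

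**Figure D5:**
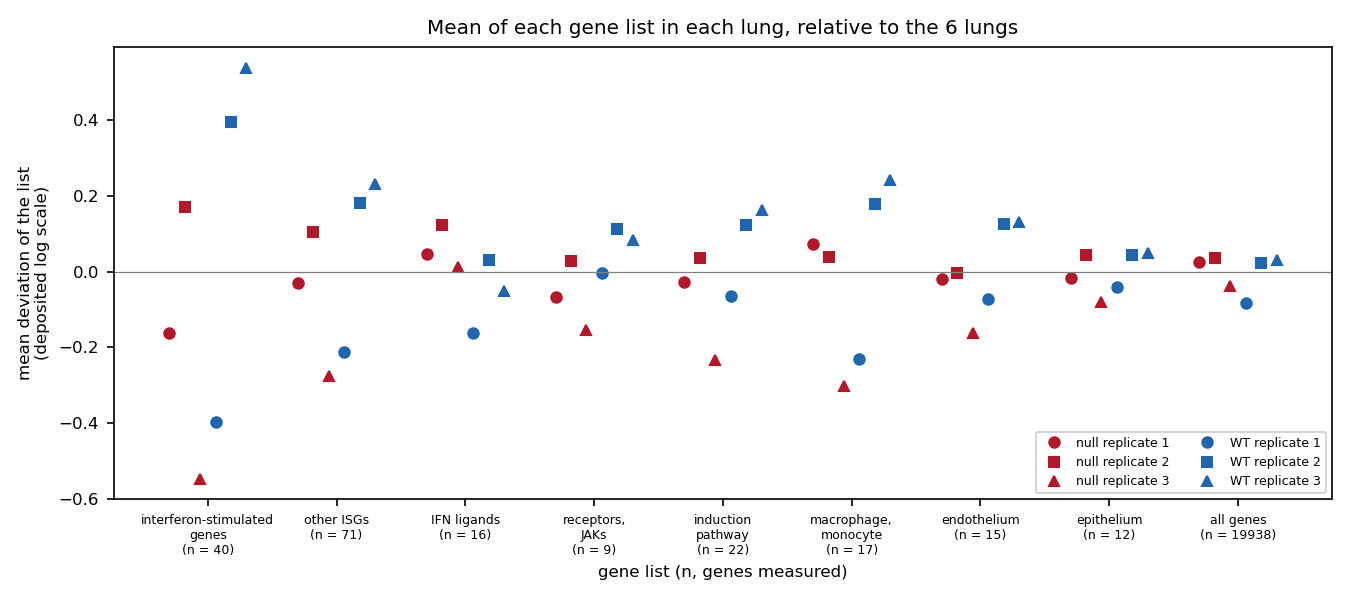
Mean of each gene list in each lung on the deposited log scale, minus the mean over the 6 lungs (*Tnrc6a* null red, WT blue). The interferon-stimulated genes span the widest range, null replicate 3 and WT replicate 1 are the lowest 2 lungs for them and also for the other ISGs, the induction pathway, the macrophage, endothelial and epithelial markers and the mean of all genes, and the interferon ligands and the receptors do not follow that order.

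Markers of other cells varied over the same lungs, and null replicate 3 and WT replicate 1 were the lowest 2 lungs for the means of the macrophage, neutrophil, lymphocyte, endothelial and epithelial lists and of all genes (5.42 and 5.38 for all genes, against 5.48 to 5.50 in the other 4 lungs). The lungs were bulk samples, in which fewer cells of a type and less RNA per cell cannot be told apart. Of 17 measured macrophage and monocyte markers 14 were lower on average in null lungs (13 without the 2 low lungs), and their mean was 5.80, 5.77 and 5.42 in *Tnrc6a* null replicates 1 to 3, against 5.50, 5.90 and 5.97 in WT replicates 1 to 3. *Mrc1* and *Adgre1*, defining macrophage markers, differed by -0.42 and -0.51 (both lower at an unadjusted p of 0.05 and neither past the adjusted threshold), *Csf1r* by -0.21 and *C1qa* by -0.02. The 2 lower at that p were 11.8% of the 17, against 2.96% of all genes. Of 15 endothelial markers 13 were lower on average, and 4 (*Pecam1*, *Cdh5*, *Tie1* and *Eng*) were lower at an unadjusted p of 0.05 with all null lungs below all WT lungs, by -0.18, -0.23, -0.21 and -0.23, none past the adjusted threshold. These 4 were 26.7% of the list. Of all genes, 2.96% were lower at that p and 5.51% had all null lungs below all WT lungs. Genotype took a median of 29.6% of the sum of squares of the 15. Their mean lay between 8.27 and 8.43 in null lungs and between 8.36 and 8.57 in WT lungs. Of 12 epithelial markers 7 were lower on average, with means between 9.15 and 9.28 in null lungs and between 9.19 and 9.28 in WT lungs. Neutrophil markers (7 of 12 lower on average) had means between 4.43 and 4.74 in null lungs and between 4.12 and 4.86 in WT lungs, with WT replicate 1 lowest, and lymphocyte markers (6 of 12 lower) between 3.70 and 3.81 in null lungs and between 3.53 and 3.88 in WT lungs. Of 9 markers of dendritic cells, plasmacytoid ones included, 3 were lower, with means between 4.55 and 4.70 in null lungs and between 4.43 and 4.69 in WT lungs. *Siglech*, which marks plasmacytoid dendritic cells, the main makers of interferon alpha, lay between 4.18 and 4.32 in null lungs and between 4.11 and 4.42 in WT lungs. Of 6 erythroid genes 5 were higher on average. *Hbb-y*, an embryonic globin gene, read 5.82, 4.77 and 6.58 in the null lungs and 4.62, 4.05 and 3.93 in the WT lungs, a difference of 1.52 ± 0.40, and the other 5 differed by between -0.02 and 0.32.

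Proliferation genes were high in the lungs where the interferon-stimulated genes were low. All 13 measured were higher on average in null lungs, and their mean was 7.15, 6.75 and 7.28 in *Tnrc6a* null replicates 1 to 3, against 7.12, 6.65 and 6.67 in WT replicates 1 to 3. Among genes of the Y chromosome, *Eif2s3y* lay between 7.31 and 7.47 in null lungs and between 7.07 and 7.72 in WT lungs. *Uty* read 6.12, 6.34 and 6.90 in the null lungs and 7.10, 6.47 and 6.31 in the WT lungs. Its highest values were in WT replicate 1 and null replicate 3. *Kdm5d*, also on the Y chromosome, did not share that order. It read 6.72, 6.68 and 6.58 in the null lungs and 6.76, 6.73 and 6.70 in the WT lungs, lowest in null replicate 3. The part that cell composition, proliferation or developmental stage has in the interferon-stimulated genes was not tested.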

How the data were processed

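Gene expression was measured on Affymetrix Mouse Gene 1.0 ST arrays, 1 lung per array. The authors deposited 1 table of values for 35045 probe sets, named log2 per the labels, with MAS5 in the submitters' processing notes. Background correction and normalization were not given in the sources used here, no scanner values were used, and the number of arrays limits the precision. Values ran from 0.29 to 12.49. Of the probe sets, 21789 carried 1 gene symbol, 1621 several and 11635 none, and 21698 were matched to current symbols by Entrez identifier. The brightest probe set of each gene gave 19938 genes, of which 999 had several.

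Differences were fitted with limma 3.58.1 in R 4.3.3 (lmFit, eBayes with a trend) as null mean minus WT mean, p-values were adjusted over all genes by Benjamini-Hochberg, and the fit was checked on simulated data. Errors beside differences are limma standard errors. The genes and lists were chosen with earlier results of these data known. Values in every lung are given for the 3 genes of each role with the smallest unadjusted p, those separating the genotypes, the brightest, the dimmest and those higher on average. In other lists up to 4 genes with the smallest p were named, besides *Ifnb1*, the type I receptor genes and core or defining genes. *Trim12a*, *Parp12*, *Psmb10*, *Hbb-y*, *Uty*, *Kdm5d*, *Tie1* and *Eng* were named after their values were seen. The alternatives were other normalizations, variance models and probe set rules, a filter on dim genes, array weights, blocks, an unpaired t-test and leaving out lungs. Promoters were taken from RefSeq (GRCm38.p6).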

Additional observations from a re-analysis of the deposited data

How the results depend on the processing

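When 1 lung was left out, the number of the 40 genes lower on average ran between 32 and 39. The median difference ran between -0.63 and -0.16. The number lower at an unadjusted p of 0.05 ran between 2 and 27, and the number separating the genotypes between 2 and 31. The high ends were without WT replicate 1, where 6.44% of all genes were lower at that p. Fewer lungs separate more easily, and the share of all genes separating with 1 lung left out was not counted. None passed the adjusted threshold in any of these fits. Without WT replicate 1 and null replicate 3 together 28 were lower at an unadjusted p of 0.05 (8.74% of all genes). There 1 was past the adjusted threshold (0.115%), and 31 separated the genotypes with null lower (25.3%). A block for these 2 lungs gave 27 at an unadjusted p of 0.05 (8.42%). Array weights gave 18 and the unpaired t-test 2. The share of all genes so called was not counted for these or for the replicate block below. Whether 18 is particular to the 40 genes can thus not be told. Of the 28 genes above the median signal 1 separated the genotypes, as did 1 of the 35 on chromosomes other than 7. The cause of these shifts was not tested.

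With the replicate number as a block, 35 genes were lower on average and 5 lower at an unadjusted p of 0.05, and 0 passed the adjusted threshold. Deviations from the genotype mean gave r = -0.30, 0.36 and -0.16 across genes for lungs of the same number, replicates 1 to 3. For null replicate 3 and WT replicate 1 the value was 0.54. Deviations within a genotype of 3 lungs depend on one another, so these values cannot tell whether the numbers pair the lungs.

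Among the 24 genes given in every lung, signs turned only for 4 genes with small positive differences. *Psmb8* read -0.0394 after quantile normalization, -0.0167 after median centring, -0.00535 with array weights and -0.015 without both lungs. *Epsti1* read -0.0422 after quantile normalization and *Isg20* -0.015 without both lungs. When 1 lung was left out, *Psmb8* ran between -0.138 and 0.147, *Epsti1* between -0.14 and 0.16, *Isg20* between -0.0717 and 0.148 and *Psmb9* between -0.04 and 0.275. Outside these 24 genes, negative differences also turned. Without null replicate 3, *Rsad2* went from -0.16 to 0.07, *Herc6* from -0.18 to 0.05 and *Ifi27l2a* from -0.08 to 0.08.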
